A study of Homo sapiens with 27 samples.

Results

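The difference between dibenzo[a,h]anthracene (DBA) and naphthalene (NP) was measured in HepG2 cells as the log2 ratio of DBA over its solvent control minus the log2 ratio of NP over its own. DBA is a polycyclic aromatic hydrocarbon of 5 fused rings and 22 carbons, and NP is the smallest of the class, with 2 rings and 10 carbons. The difference is between 6 of the 27 arrays of the series, 3 with DBA and 3 with NP, chosen by the compound in their labels. The fit also held the 3 arrays of 3-methylcholanthrene (3MC), 9 in all, which share 1 estimate of the spread and are set beside DBA at the end. HepG2 is a human hepatocellular carcinoma line that keeps many functions of hepatocytes. DBA-treated, 3MC-treated and NP-treated cells had each been exposed for 48 h, and on every array RNA of treated cells was labelled with Cy5 and hybridised together with Cy3-labelled RNA of cells given the solvent DMSO. Doses are not given in the sources used here, so the compounds are compared as they were applied. The labels do not say whether the 3 arrays of a compound came from separate cultures, so p-values measure the spread between arrays, which may be technical. The dyes were never exchanged. A gene was tested when both channels stood well above background (over 2 background SDs) on at least 2 of 3 DBA arrays and at least 2 of 3 NP arrays, which left 13876 of 17288 named genes.

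Large planar hydrocarbons are known as ligands of the aryl hydrocarbon receptor (AHR), a transcription factor that pairs with ARNT, binds a short GCGTG core in DNA and switches on genes of xenobiotic metabolism such as CYP1A1. Enzymes of that family can turn such hydrocarbons into reactive diol epoxides that bind DNA, and DNA damage activates the transcription factor p53. Active p53 switches on genes of cell cycle arrest, repair and cell death, and indirectly silences genes of G2 and mitosis, many of which carry a cell cycle homology region (CHR, TTTGAA) in their promoters.

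The DBA arrays were dimmer than the NP arrays. The median net signal per array was 36 to 48 intensity units in Cy5 and 33 to 50 in Cy3 on the DBA arrays, against 84 to 102 in Cy5 and 197 to 253 in Cy3 on the NP arrays. Between 65.4% and 72.0% of probe spots stood above background in both channels with DBA, against 79.3% to 82.7% with NP. The scanner output flagged 53.89% to 59.09% of probe spots as not found on the DBA arrays, against 27.08% to 32.15% on the NP arrays. No probe spot was saturated in Cy5 on either set, and the number of arrays limits the precision. Log2 ratios correlated across genes at 0.979 to 0.983 among DBA arrays and at 0.981 to 0.982 among NP arrays (genes are not independent replicates). All 11 hepatocyte markers stood above background in Cy5 on at least 5 of the 6 arrays, at a median percentile of 99.9 of intensity. The same held for 7 of 8 leukocyte, 4 of 7 fibroblast and stellate and 5 of 7 endothelial markers, at median percentiles of 66.7, 34.5 and 27.1.

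Of the 13876 genes, 990 were higher with DBA than with NP (7.13%) and 751 were lower (5.41%), 1741 in all (12.5%), at an adjusted p under 0.05 in limma and a difference of at least 1.5-fold. The difference was at least 2-fold for 288 of the higher and 118 of the lower genes, and at least 4-fold for 12 higher genes and no lower gene. The median difference over all genes was -0.03 on the log2 scale and the median absolute difference 0.21. The 3 DBA ratios and the 3 NP ratios did not overlap for 10370 genes (74.7%). The split depended on how arrays were centred or scaled. With each array centred on its median in place of loess, the median difference over all genes moved to 0.26, and 3542 of the 13876 genes were higher and 153 lower. Counts and medians of lists under median centring below stand against these values over all genes. With quantile scaling between arrays 662 genes were higher and 943 lower, and with centring over the tested genes 2077 were higher and 448 lower.

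Against their own DMSO channels, 533 genes were higher (3.84%) and 1239 lower (8.93%) with DBA, and 1128 were higher (8.13%) and 1931 lower (13.9%) with NP. The offset added in background correction shrinks ratios of dim spots, and the DBA arrays were the dimmer set. With plain background subtraction in its place, 1131 genes were higher and 1799 lower with DBA, and 1765 were higher and 2098 lower with NP. How the split of calls given next depends on the offset was not tested. Of the 990 genes higher with DBA than with NP, 580 were lower than DMSO with NP and not called with DBA, 131 were higher than DMSO with DBA and not called with NP, and 107 were lower with both. Of the 751 lower genes, 366 were higher than DMSO with NP and not called with DBA, and 138 were lower with DBA and not called with NP. Only 24 of the 13876 genes were called in opposite directions against DMSO, 18 of them higher with DBA and lower with NP and 6 the other way.

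**Figure D1:**
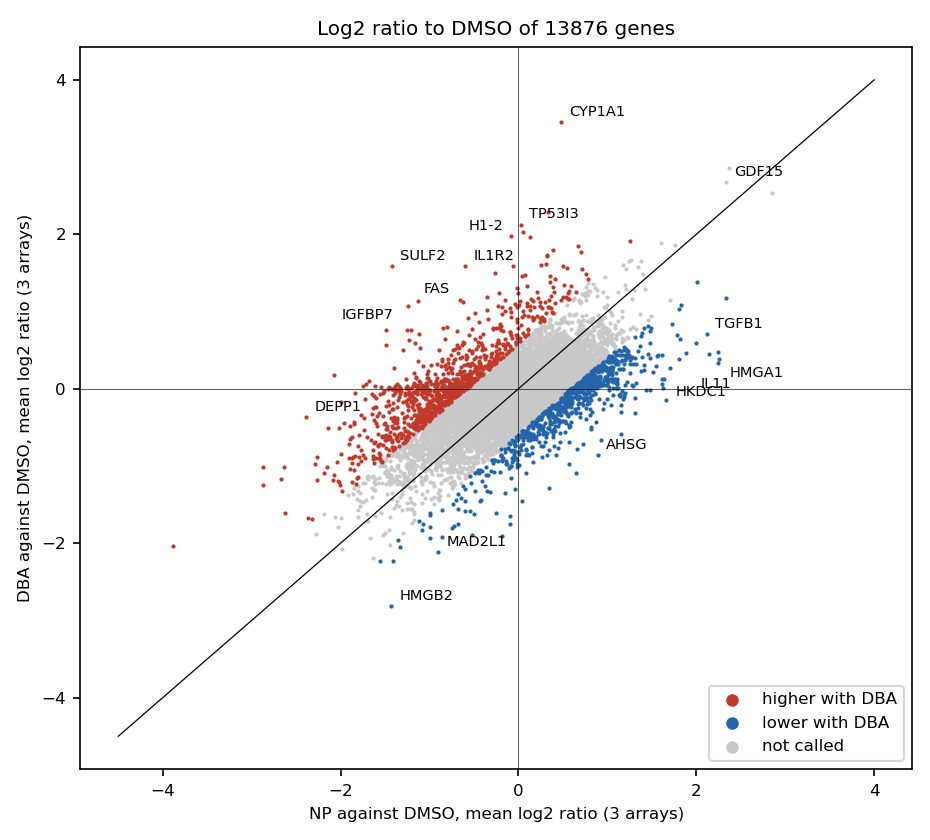
Mean log2 ratio to DMSO with DBA (vertical axis, 3 arrays) against that with NP (horizontal axis, 3 arrays) for the 13876 genes tested. Each point is a gene, the diagonal marks equal ratios, and the 990 genes called higher and 751 called lower with DBA lie to either side of it, CYP1A1 farthest from 0 on the DBA axis among the genes named.

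The DMSO channel itself differed between the 2 sets of arrays. After scaling between arrays, the Cy3 signal differed by at least 1.5-fold for 2696 genes (19.4%) and the Cy5 signal for 2874 (20.7%). Among the 1741 genes called in the ratio, the DMSO channel was called too for 699, and for 484 of those the compound channel was not called. For 605 of the 1741 the compound channel was called and the DMSO channel was not. The part of the DMSO channel in these ratios was not tested, and its difference is given beside the genes named here for which it was called.

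The largest differences fell on genes of several roles. SULF2, an extracellular enzyme that trims heparan sulfate, had log2 ratios of 1.63, 1.53 and 1.59 on the DBA arrays, against -1.45, -1.37 and -1.44 on the NP arrays. It was higher than DMSO on every DBA array and lower on every NP array, with a difference of 3.01 ± 0.04 (SE; adjusted p = 1.9e-13). Its DMSO channel was lower by 1.61 on the log2 scale on the DBA arrays, and its compound channel was 1.40 higher. IGFBP7, a secreted binder of insulin-like growth factors, had ratios of 1.16, 1.01 and 1.03 with DBA, against -1.28, -1.25 and -1.20 with NP. Its difference was 2.31 ± 0.05 (adjusted p = 2.9e-12), with a DMSO channel -0.70 apart.

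UBD, a ubiquitin-like modifier induced by inflammatory cytokines, and BIRC3, an inhibitor of apoptosis in NF-kappaB signalling, were higher by 2.25 ± 0.07 and 2.01 ± 0.06. Both had their DMSO channel called lower on the DBA arrays, with differences of -1.40 for UBD and -1.54 for BIRC3. The compound channel of BIRC3 differed by 0.48 and was not called, and the authors' deposited values gave BIRC3 a difference of 3.07. IL1R2, a decoy receptor of interleukin 1, had ratios of 1.64, 1.57 and 1.56 with DBA, against -0.53, -0.64 and -0.62 with NP. Its difference was 2.19 ± 0.04 with a compound channel 2.09 higher and a DMSO channel -0.10 apart, and its other probe gave 1.28.

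CAVIN2, a coat protein of caveolae, had a difference of 2.05 ± 0.04, which was 3.09 with plain background subtraction and 3.15 with the authors' deposited values, and a DMSO channel -0.69 apart. For DEPP1, a target of FOXO factors, it was 2.02 ± 0.04, with NP ratios of -2.43, -2.34 and -2.39 and DBA ratios near -0.38, -0.39 and -0.34. DEPP1 was called lower than DMSO in NP cells and was not called in DBA cells, and its DMSO channel was -0.69 apart. IKBIP had a difference of 2.25 ± 0.05, but its other probe gave 0.64, and the mean of its probes gave 1.45. DEPP1's other probe gave 0.63, and the mean of its probes 1.32.

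At the other end, IL11, a cytokine of the interleukin 6 family, had ratios of 0.39, 0.33 and 0.27 with DBA, against 2.33, 2.22 and 2.17 with NP. The groups stood far apart, with a difference of -1.91 ± 0.05 (adjusted p = 3.1e-11). Its net signal was low on the DBA arrays, at 36, 30 and 24 units in Cy5 and 15, 14 and 10 in Cy3, against 811, 706 and 639 in Cy5 and 264, 250 and 248 in Cy3 on the NP arrays. After scaling between arrays the DMSO channel was -0.74 apart for IL11 and -0.59 apart for ITPR3. ITPR3, a calcium channel of the endoplasmic reticulum, had ratios of 0.48, 0.47 and 0.48 with DBA, against 2.31, 2.25 and 2.15 with NP. HKDC1, a hexokinase-like enzyme, was lower, at -1.80 ± 0.04 and its other probe was at -1.09. These 3 genes were called higher than DMSO with NP and were not called with DBA.

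ODC1, the rate-limiting enzyme of polyamine synthesis, had ratios of -1.08, -1.19 and -1.02 with DBA, against 0.65, 0.65 and 0.63 with NP. It was lower than DMSO in DBA cells and higher in NP cells, with a difference of -1.74 ± 0.05 and a DMSO channel 1.04 higher on the DBA arrays. With median centring the difference was -1.15 for ODC1 and -1.08 for AHSG. AHSG, a plasma glycoprotein made by hepatocytes, had -0.85, -1.12 and -0.61 with DBA, against 0.75, 0.98 and 0.94 with NP. Its DMSO channel was 1.35 higher on the DBA arrays, and its compound channel was -0.40 apart and not called. ABTB3, ANGPTL8, CMSS1, EXOC4 and HPR were also among the 12 lowest, with differences of -1.74, -1.63, -1.66, -1.62 and -1.72. The DMSO channel was -0.80 apart for CMSS1 and 0.77 apart for EXOC4. HPR is nearly identical to HP, so their probes may share signal. HMGA1, an architectural chromatin protein, had -1.86 ± 0.05, but its other probe gave -0.09, and the mean of its probes -0.98.

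**Figure D2:**
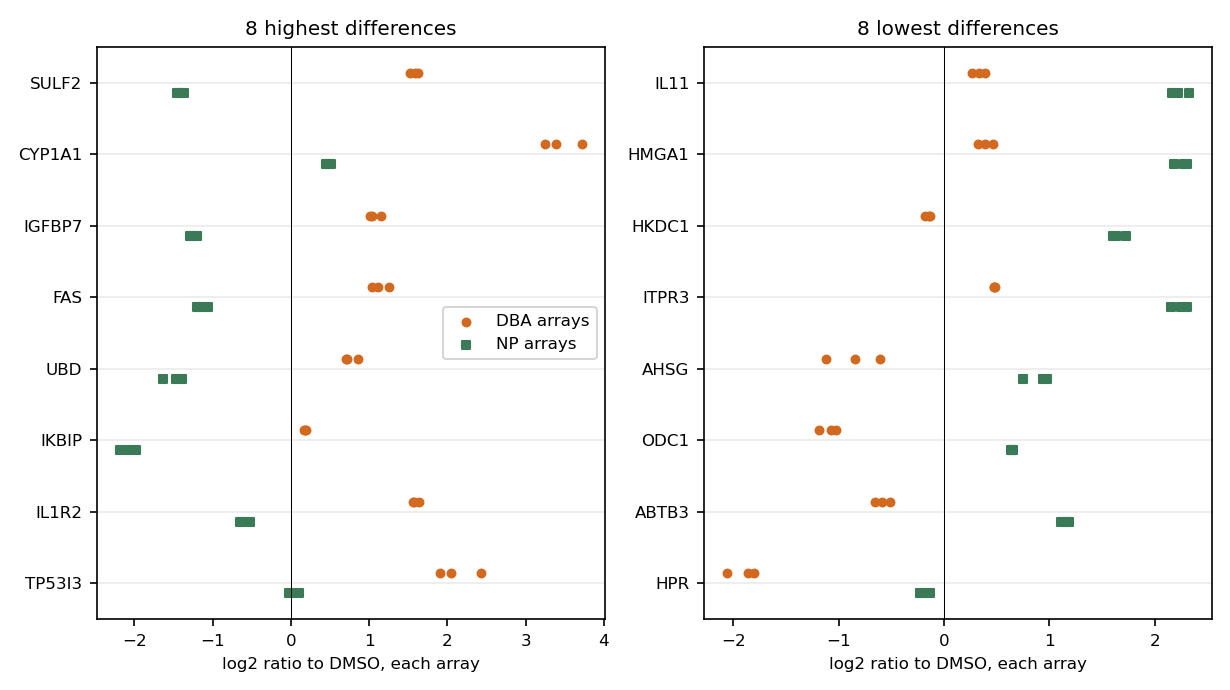
Log2 ratio to DMSO on each array (horizontal axis) for the 8 genes with the highest and the 8 with the lowest difference (rows), with DBA arrays as circles and NP arrays as squares. No gene shown has overlapping groups, and SULF2 has all 3 DBA arrays above 0 and all 3 NP arrays below it.

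**Figure D3:**
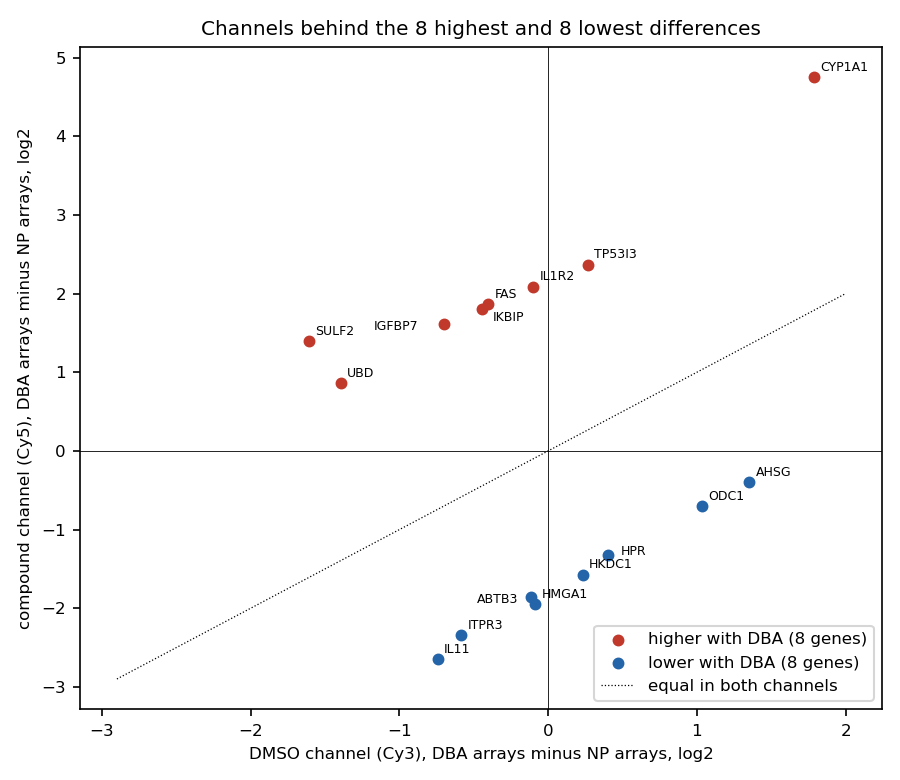
Difference between DBA arrays and NP arrays in the compound channel (Cy5, vertical axis) and in the DMSO channel (Cy3, horizontal axis), both log2, for the same 16 genes. The distance from the dotted line is the difference of ratios, which for IL1R2 lies almost wholly in Cy5 (2.09 against -0.10) and for UBD more in Cy3 than in Cy5 (0.86 in Cy5 against -1.40 in Cy3).

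Of 17 AHR targets, 13 passed the filter, 3 were higher with DBA than with NP, none was lower, and the median difference was 0.18, which was 0.56 with median centring. CYP1A1, which oxidises polycyclic hydrocarbons and is the classical AHR target, had ratios of 3.72, 3.38 and 3.24 with DBA, against 0.48, 0.51 and 0.45 with NP. Its net Cy5 signal was 1890, 1677 and 1594 units with DBA, against 85, 69 and 82 with NP, while Cy3 was 72, 89 and 81 on the DBA arrays and 110, 86 and 117 on the NP arrays. All 3 DBA arrays stood far above all 3 NP arrays, with a difference of 2.97 ± 0.09 (adjusted p = 3.6e-11). Relative to the other genes of the same arrays its DMSO channel was 1.79 higher with DBA. AHRR, the repressor that AHR induces against itself, had ratios of 1.08, 0.77 and 0.85 with DBA, against -0.41, -0.30 and -0.32 with NP, a difference of 1.24 ± 0.07 (adjusted p = 3.7e-09). NQO1, a quinone reductase that both AHR and NRF2 control, had 0.66, 0.53 and 0.63 with DBA, against -0.66, -0.64 and -0.57 with NP, a difference of 1.23 ± 0.05 (adjusted p = 2.2e-10).

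The other tested AHR targets were not called. UGT1A6, a glucuronosyltransferase whose exons are shared with other UGT1A genes, differed by 0.37 (95% interval 0.21 to 0.53) and was called higher than DMSO with DBA, and its other probe gave 0.61. CYP1B1, a further AHR-induced P450, differed by 0.17 (0.06 to 0.27) at a net Cy5 signal of only 24, 46 and 20 units with DBA, against 53, 16 and 67 with NP, where the offset of 50 shrinks ratios. TIPARP, an AHR-induced ADP-ribosyltransferase, differed by 0.18 (0.10 to 0.27). CYP1A2, the other P450 of the CYP1A pair, differed by -0.04 (-0.13 to 0.06), and its DMSO channel and compound channel were both called higher on the DBA arrays, by 0.99 and 0.96. NFE2L2, TNFAIP2, SLC7A5, PMAIP1, LRAT and CYP2S1 lay between -0.18 and 0.32, and the DMSO channel of CYP2S1 was -0.82 apart. PMAIP1 was dim too, with net Cy5 of 33, 43 and 27 units on the DBA arrays and 51, 39 and 57 on the NP arrays. Net Cy3 of TNFAIP2 was 33, 52 and 34 units on the DBA arrays. The offset shrinks such ratios as well. With median centring of the arrays 6 of the 13 were called higher. Among the targets outside the filter, ALDH3A1, an aldehyde dehydrogenase, stood above background in Cy5 on 3 of 3 DBA arrays and 0 of 3 NP arrays, and in Cy3 on 1 of 3 DBA arrays and 3 of 3 NP arrays. SCIN and EREG stood above background in Cy5 on 0 of 3 DBA arrays, against 2 and 3 of 3 NP arrays. In the DMSO channel (Cy3) both stood above it on only 1 of 3 DBA arrays, against 3 of 3 NP arrays. UGT1A1 was not analysed here. No AHR pathway protein among 9 tested was called, with a median of -0.14 that turned to 0.41 under median centring.

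The letters GCGTG, searched on both strands, lie in the window of 250 bases before to 50 bases after the gene start for 8 of the 12 tested AHR targets with a RefSeq promoter, against 47.6% of the 11123 tested genes that have one. The windows of the 3 called targets are shown because each holds the core once, with the match in capitals (as GCGTG, or as CACGC where it reads on the other strand). They are RefSeq sequences of GRCh38.p14, 5′ to 3′ on the strand of the gene, for CYP1A1 at chr15:74725479-74725778 (minus strand), AHRR at chr5:321464-321763 (plus strand) and NQO1 at chr16:69726511-69726810 (minus strand).
CYP1A1: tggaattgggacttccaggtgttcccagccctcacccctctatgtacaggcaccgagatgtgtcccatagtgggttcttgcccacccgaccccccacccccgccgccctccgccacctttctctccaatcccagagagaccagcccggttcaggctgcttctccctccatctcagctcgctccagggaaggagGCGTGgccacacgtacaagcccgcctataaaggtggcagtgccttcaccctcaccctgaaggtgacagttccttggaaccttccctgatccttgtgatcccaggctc
AHRR: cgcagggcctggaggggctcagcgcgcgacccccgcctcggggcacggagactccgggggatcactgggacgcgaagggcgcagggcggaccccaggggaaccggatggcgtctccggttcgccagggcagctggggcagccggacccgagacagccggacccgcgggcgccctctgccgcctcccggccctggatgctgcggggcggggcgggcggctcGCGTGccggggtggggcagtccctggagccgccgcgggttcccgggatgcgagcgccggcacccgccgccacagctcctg
NQO1: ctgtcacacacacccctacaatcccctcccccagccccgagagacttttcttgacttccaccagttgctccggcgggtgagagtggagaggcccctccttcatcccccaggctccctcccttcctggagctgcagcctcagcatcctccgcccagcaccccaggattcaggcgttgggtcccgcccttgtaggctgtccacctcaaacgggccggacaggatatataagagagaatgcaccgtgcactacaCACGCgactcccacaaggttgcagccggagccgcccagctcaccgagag
A match is a string of letters and not a measured binding site. The core begins at base 194 of the CYP1A1 window, base 221 of the AHRR window and base 252 of the NQO1 window.

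Among the 25 lists, p53 targets were the group with the largest share of higher calls under loess. Of 32 members 31 passed the filter, 17 were higher with DBA than with NP and none was lower, and the median difference was 0.66, against -0.03 over all genes. With median centring 23 were higher and the median was 1.20, against 0.26 over all genes. In that setting the list of metallothioneins and zinc export had a larger share of higher calls, 10 of 12. The DMSO channel was called for 9 of the 31 p53 targets. Against DMSO, 19 of the 31 were higher and 1 lower with DBA, and 5 were higher and 5 lower with NP. FAS, the death receptor of the tumour necrosis factor receptor family, had ratios of 1.26, 1.04 and 1.11 with DBA, against -1.13, -1.20 and -1.06 with NP. It was higher than DMSO with DBA and lower with NP, with a difference of 2.27 ± 0.05 (adjusted p = 1.5e-11). TP53I3, an oxidoreductase, had 2.43, 2.04 and 1.91 with DBA, against -0.02, 0.11 and -0.01 with NP, a difference of 2.10 ± 0.10 (adjusted p = 2.0e-09).

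FDXR, the reductase that feeds mitochondrial P450 enzymes, had 1.67, 1.45 and 1.36 with DBA, against -0.19, -0.35 and -0.26 with NP. DDB2, which recognises damaged bases in nucleotide excision repair, had 1.70, 1.56 and 1.52 with DBA, against -0.06, -0.05 and -0.09 with NP. TIGAR, a phosphatase that lowers glycolytic flux, had 1.30, 1.12 and 1.12 with DBA, against -0.37, -0.41 and -0.27 with NP. For all 3 the NP ratios lay near or slightly below 0 and the DBA ratios well above it, with differences of 1.76 ± 0.08, 1.66 ± 0.05 and 1.53 ± 0.05. The DMSO channel was called lower on the DBA arrays for FDXR (-0.73) and DDB2 (-0.62).

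GDF15, a stress-induced secreted factor, was high with both compounds, at 3.08, 2.53 and 2.40 with DBA and 2.53, 2.15 and 2.32 with NP. These values overlap, and the difference of 0.34 (95% interval 0.03 to 0.65) was not called. BBC3, which triggers apoptosis, had 0.75, 0.66 and 0.50 with DBA, against 1.08, 0.92 and 1.00 with NP, and was not called at -0.37 (-0.49 to -0.24), with a DMSO channel 0.86 apart. CDKN1A, the p21 inhibitor of cyclin-dependent kinases, was picked after its values were seen. Its ratio averaged 1.73 ± 0.35 with DBA and 0.32 ± 0.07 with NP (SD, n = 3 each), with no overlap, a difference of 1.41 ± 0.13 (SE). POLH, outside the filter, stood above background in Cy5 on 2 of 3 DBA arrays and 3 of 3 NP arrays, with the same numbers in Cy3.

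**Figure D4:**
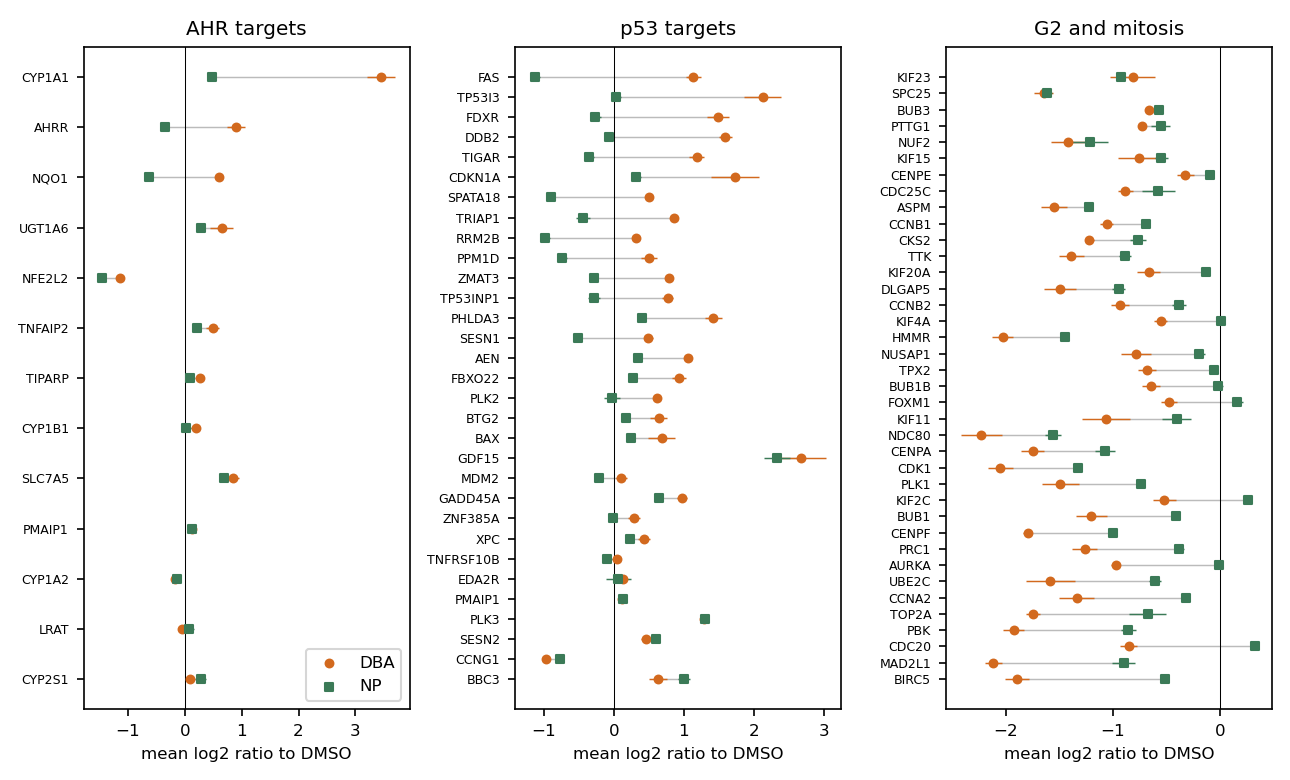
Mean log2 ratio to DMSO (horizontal axis, bars are SD over 3 arrays) of each tested member of the AHR, p53 and G2 and mitosis lists, with DBA as circles and NP as squares joined by a line. CYP1A1, AHRR and NQO1 have the widest gaps among the AHR targets, most p53 targets have DBA to the right, and most G2 and mitosis genes have DBA to the left.

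Of the same 25 lists, genes of G2 and mitosis had the largest share of lower calls. Of 40 members 38 passed the filter, 21 were lower with DBA than with NP and none was higher, and 37 of 38 had a difference below 0, with a median of -0.62. Against DMSO, 34 of the 38 were lower with DBA and 18 were lower with NP, and none was higher with either. CDC20, the activator of the anaphase-promoting complex, had ratios of -0.94, -0.83 and -0.79 with DBA, against 0.35, 0.31 and 0.30 with NP. It was below DMSO on all DBA arrays and above it on all NP arrays, with a difference of -1.17 ± 0.06 (adjusted p = 2.8e-09) and a DMSO channel 0.69 higher on the DBA arrays. MAD2L1, a spindle checkpoint protein, had -2.20, -2.11 and -2.04 with DBA, against -0.78, -0.93 and -0.99 with NP. Both compounds had it below DMSO, DBA further, with a difference of -1.22 ± 0.06 and a DMSO channel 1.11 higher on the DBA arrays. Plain background subtraction gave MAD2L1 -2.02.

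TOP2A, the topoisomerase that untangles chromosomes, had -1.82, -1.73 and -1.69 with DBA, against -0.49, -0.72 and -0.82 with NP. Its difference of -1.07 ± 0.07 came with a DMSO channel 1.55 higher on the DBA arrays and a compound channel 0.48 higher, which was not called, and plain background subtraction gave -1.71. PBK, a mitotic kinase, had a difference of -1.07 ± 0.07, and plain background subtraction gave -2.16 and the authors' deposited values -2.50. Net Cy5 on the DBA arrays was low for both genes, at 37, 41 and 48 units for TOP2A and 27, 30 and 29 for PBK. BIRC5, which encodes survivin of the chromosomal passenger complex, had -1.38 ± 0.06, but its other probe gave 0.04, and the mean of its probes -0.67. CKS2 and BUB3 were not called, at -0.45 ± 0.05 and -0.09 ± 0.04. The DMSO channel was called for 9 of the 38 members. With median centring 6 of the 38 were called lower, and the median stayed below 0 at -0.29. MKI67 stood above background in Cy5 on 0 of 3 DBA arrays and 3 of 3 NP arrays, AURKB on 1 of 3 DBA arrays and 2 of 3 NP arrays, and both in Cy3 on all arrays.

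The letters TTTGAA, searched on both strands, lie in the promoter window of 22 of the 30 tested G2 and mitosis genes that have one (73.3%), against 10.7% of the 11123 tested genes and 1 of 32 DNA replication genes. Of the 22 genes with the letters 12 were called lower (54.5%), and of the 8 without them 3 (37.5%). Over all 38 tested members, with or without a promoter window, 21 were called lower. A link between the letters and the calls was not tested. The windows of 3 called genes with the letters are shown, with each match in capitals (TTTGAA, or TTCAAA where it reads on the other strand). They lie at chr1:43358731-43359030 on the plus strand for CDC20, chr4:120066799-120067098 on the minus strand for MAD2L1 and chr17:40417847-40418146 on the minus strand for TOP2A, again in GRCh38.p14.
CDC20: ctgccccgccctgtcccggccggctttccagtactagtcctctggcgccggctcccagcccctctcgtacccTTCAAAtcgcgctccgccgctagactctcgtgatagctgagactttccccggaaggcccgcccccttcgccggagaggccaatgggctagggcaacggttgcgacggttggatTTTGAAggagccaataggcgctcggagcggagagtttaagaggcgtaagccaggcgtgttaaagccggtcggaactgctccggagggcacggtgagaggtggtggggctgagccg
MAD2L1: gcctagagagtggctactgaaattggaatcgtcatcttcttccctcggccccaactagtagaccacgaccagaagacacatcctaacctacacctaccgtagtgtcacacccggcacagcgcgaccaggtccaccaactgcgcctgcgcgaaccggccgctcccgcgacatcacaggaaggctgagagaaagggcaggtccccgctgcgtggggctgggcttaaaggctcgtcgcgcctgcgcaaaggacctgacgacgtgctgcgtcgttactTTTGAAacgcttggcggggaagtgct
TOP2A: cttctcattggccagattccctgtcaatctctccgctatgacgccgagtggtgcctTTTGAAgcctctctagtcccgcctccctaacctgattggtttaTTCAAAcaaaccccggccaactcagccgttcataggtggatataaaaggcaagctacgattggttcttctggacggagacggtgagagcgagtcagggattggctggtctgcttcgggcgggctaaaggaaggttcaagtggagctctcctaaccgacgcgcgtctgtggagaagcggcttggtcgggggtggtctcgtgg
CDC20 and TOP2A hold the letters at 2 places and MAD2L1 at 1, which begins at base 275 of its window. As above, the letters are a description of these windows only.

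Among 38 tested genes of DNA replication and nucleotide supply, 12 were lower with DBA than with NP and 2 were higher, with a median of -0.47. MCM5, MCM6 and MCM7, subunits of the replicative helicase, were lower, at -0.92, -0.91 and -0.90. MCM7 had -0.34, -0.31 and -0.26 with DBA, against 0.62, 0.64 and 0.54 with NP. The DMSO channel was -0.81 apart for MCM6 and -0.66 apart for MCM7. PCNA, the sliding clamp of DNA polymerases and also a p53 target, was higher instead, with 0.86, 0.64 and 0.84 with DBA against -0.90, -0.79 and -0.85 with NP, a difference of 1.63 ± 0.06. TYMS, which makes thymidylate, was higher by 1.03 ± 0.04 with a DMSO channel -0.69 apart, and by 1.57 with median centring. Under median centring the 3 MCM differences were -0.56, -0.55 and -0.47 and no longer called. In that setting 5 members of the list were higher and 1 lower, and its median was -0.13, against 0.26 over all genes. The DMSO channel was called for 15 of the 38. Of 28 DNA repair genes 2 were lower, XRCC1 (-0.70) and APEX1 (-0.81, with a DMSO channel 1.09 apart), and none was higher. Neither was called under median centring (-0.40 and -0.17). The repair list's median of -0.13 turned to 0.19 under median centring (0.26 over all genes), where 3 were higher.

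Histone genes leaned the other way. Of 23 tested replication-dependent and H1 histone genes, 10 were higher with DBA and 1 lower, with a median of 0.42, and 15 were higher under median centring. H1-2, a linker histone, had ratios of 2.10, 1.95 and 1.87 with DBA, against -0.12, -0.06 and -0.08 with NP, a difference of 2.06 ± 0.05 with a DMSO channel -0.88 apart. H1-4 was higher by 1.40 ± 0.05 and H1-3 by 1.25 ± 0.08 (1.98 with the authors' deposited values), and neither had its DMSO channel called. Histone genes are near-identical copies of each other, so their probes may share signal. In the list of high-mobility-group and chromatin proteins 4 of 21 were lower and 1 higher. HMGB2, a DNA-bending protein of dividing cells, had -2.91, -2.92 and -2.63 with DBA, against -1.40, -1.48 and -1.42 with NP, so it was far below DMSO with both and lower with DBA, at -1.39 ± 0.06, which was -0.80 with median centring and -2.15 with quantile scaling, and its DMSO channel was 0.86 higher on the DBA arrays. DNMT3A, the only higher member, was at 1.00 ± 0.05, but plain background subtraction gave -0.36, its other probe -0.29 and the mean of its probes 0.35, which was not called, and its DMSO channel was -1.82 apart. The list's median of -0.25 turned to 0.06 under median centring (0.26 over all genes), with 4 higher and 2 lower.

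Stress lists were mixed. Of 22 NRF2 targets 4 were higher and 7 lower, with a median of -0.26. Under median centring 7 were higher and none lower, and the median was 0.22, against 0.26 over all genes. AKR1B10, an aldo-keto reductase, had 1.93, 1.67 and 1.70 with DBA, against 0.69, 0.69 and 0.72 with NP, a difference of 1.07 ± 0.06 that was 1.78 with median centring, with a DMSO channel 0.65 higher. HMOX1, which degrades haem, had 0.14, 0.08 and 0.16 with DBA, against -0.83, -0.88 and -0.80 with NP, a difference of 0.96 that was 1.51 with median centring, with a DMSO channel -0.62 apart. FTL, the ferritin light chain, was lower instead, with 0.19, 0.00 and -0.06 with DBA against 1.07, 0.96 and 0.97 with NP, a difference of -0.96 ± 0.06 that its other probes shared (-0.87 and -0.79) and that was not called with median centring (-0.43). Of 30 ATF4 and unfolded protein response genes 7 were lower and 1 higher, with a median of -0.17 that turned to 0.33 under median centring, where 3 were lower and 7 higher. DDIT4, TRIB3 and ERN1, a stress inhibitor of mTOR, a pseudokinase and a sensor of unfolded proteins, were lower, at -1.45, -1.44 and -1.43, with NP ratios above 0 on all arrays. With median centring DDIT4 was at -0.93 and TRIB3 at -0.95. ERN1's other probes gave -0.14 and -0.10, and the mean of its probes, -0.55, was not called.

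Metallothioneins bind zinc and other metals, and their list of 12 also covers zinc export. Against DMSO 7 of the 12 were higher and 1 lower with DBA, and 6 were higher and none lower with NP. Only MT1F was called between the compounds, lower with DBA at -0.66, and it was not called with median centring (-0.16). MT1A had 2.06, 1.80 and 1.71 with DBA and 1.93, 1.67 and 1.67 with NP, a difference of 0.10 (95% interval -0.10 to 0.30). Under median centring 10 of the 12 were called higher with DBA. Metallothionein genes are near-identical, so their probes may share signal.

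Of 44 secreted hepatocyte proteins 7 were lower and 4 higher, with a median of -0.09 that turned to 0.34 under median centring, where 2 were lower and 15 higher. HP, which binds free haemoglobin, had -1.47, -1.49 and -1.39 with DBA, against 0.03, -0.01 and 0.10 with NP, a difference of -1.49 that was -0.95 with median centring. TTR, a carrier of thyroid hormone in blood, had 0.08, 0.01 and 0.03 with DBA, against -1.25, -1.26 and -1.24 with NP, with a DMSO channel -1.04 apart. Among 21 hepatocyte transcription factors CEBPA was lower, at -1.14 ± 0.05 (-0.62 with median centring) and at -1.44 at its other probe, NR1H4, the bile acid receptor, was lower, at -0.77 but not called with median centring (-0.35), and NR0B2, which that receptor induces, was higher by 1.14 ± 0.05. Of 18 fatty acid and triglyceride synthesis genes 4 were lower, SCD, DGAT1, LPIN1 and ELOVL5, and none was higher, with a median of -0.23. Under median centring the median was 0.11, against 0.26 over all genes, none of the 4 was called and 2 other members were higher. The DMSO channel of SCD was 0.83 higher on the DBA arrays. Of 30 CYP2, CYP3 and other P450 genes 5 were higher and 1 lower, and with median centring 10 higher and none lower, with a median of 0.31. CYP3A4, the main drug-metabolising P450 of liver, had -0.01, 0.03 and 0.09 with DBA, against -1.11, -0.93 and -1.09 with NP.

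In the inflammatory and matrix lists, 4 of 21 cytokine genes were higher and 1 lower, and 6 of 32 matrix and adhesion genes were higher and 3 lower. With median centring 6 cytokine genes were higher and 1 lower, and 14 matrix and adhesion genes were higher and 2 lower. CCL20, a chemokine, had 0.23, 0.17 and 0.20 with DBA, against -1.12, -1.22 and -1.18 with NP. TGFB1 was above DMSO with both, at 0.77, 0.71 and 0.63 with DBA and 2.11, 2.11 and 2.13 with NP, a difference of -1.42 ± 0.06. IFI27, an interferon-induced gene, had 0.65, 0.53 and 0.70 with DBA, against -1.20, -1.34 and -1.14 with NP, and 5 of 31 interferon response genes were higher and 1 lower, against 9 and none with median centring. The remaining lists had between 0 and 4 calls in either direction, which for conjugating enzymes was 4 higher and 2 lower of 28, for cholesterol synthesis 2 higher of 25, for fatty acid oxidation 1 higher of 21, for glycolysis 2 higher and 1 lower of 28, for the mitochondrial respiratory chain 4 higher of 39, for heat shock proteins 1 each way of 15 and for transporters 2 each way of 20. With median centring the higher calls were 13 for conjugating enzymes, 7 for cholesterol synthesis, 9 for fatty acid oxidation, 8 for glycolysis, 24 for the respiratory chain, 5 for heat shock proteins and 6 for transporters, and the only lower call among these lists was 1 in glycolysis. Over all 13876 genes that setting called 3542 higher and 153 lower, and list counts under it are to be read beside that share.

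**Figure D5:**
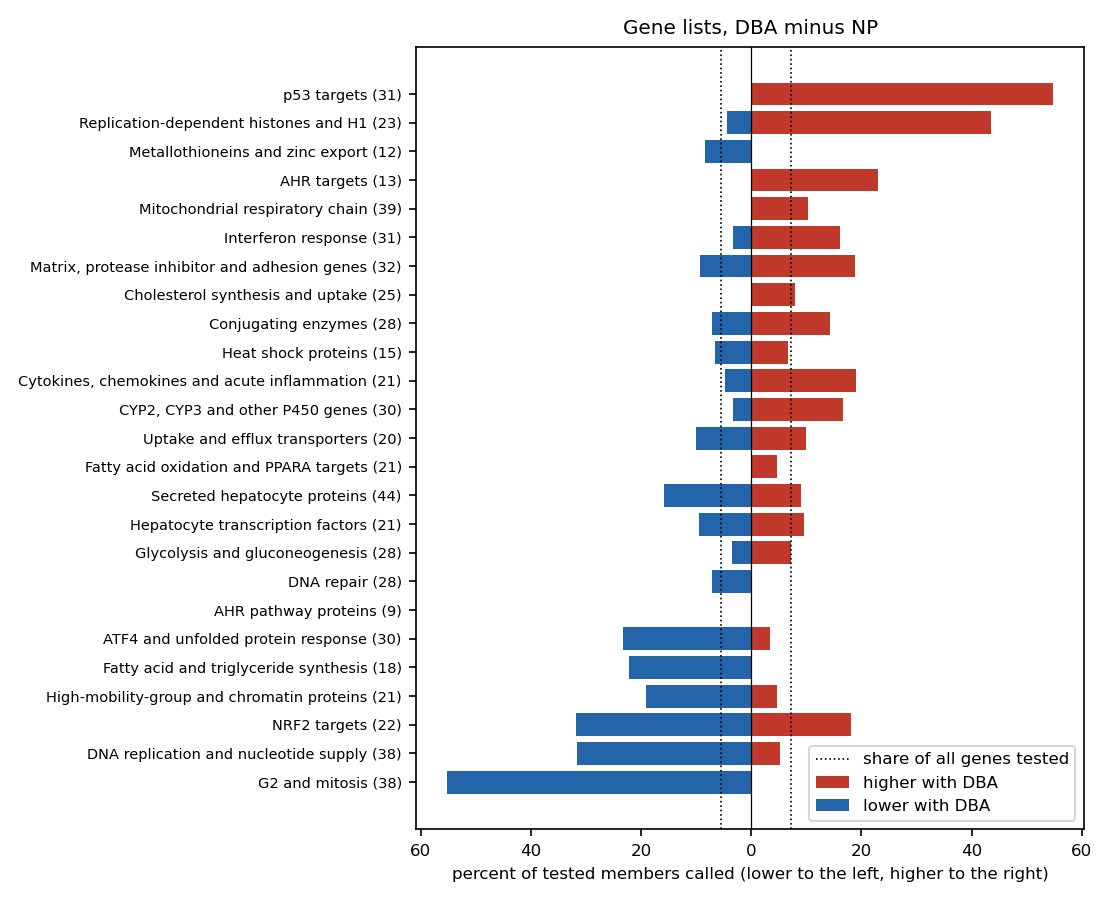
Percent of the tested members of each list (rows, number tested in brackets) called higher (right) or lower (left) with DBA than with NP, ordered by median difference. Dotted lines mark the shares of all genes tested, 7.13% higher and 5.41% lower, and p53 targets and histones pass the right line most, G2 and mitosis the left.

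Set beside 3MC, a methylated hydrocarbon of several fused rings with 3 arrays in the same file layout, DBA differed for fewer genes. Between DBA and 3MC 186 genes were higher (1.34%) and 158 lower (1.14%), and this pair shares the DBA arrays with the pair of DBA and NP. These were the 2 pairs of compounds compared, each adjusted over all genes tested and not over the pairs. CYP1A1 was higher with DBA than with 3MC by 0.56 (95% interval 0.37 to 0.75) and not called, AHRR by 0.53 (0.38 to 0.67) and not called, and NQO1 by 1.15 (1.05 to 1.25) and called. For p53 targets DBA minus 3MC was 0.17 (-0.05 to 0.39) at TP53I3, 0.09 (-0.08 to 0.27) at FDXR and 0.09 (-0.01 to 0.19) at DDB2, and 1 of 31 members was called. None of the 38 G2 and mitosis genes was called between DBA and 3MC, with a median of 0.08. Called differences from 3MC included IL1R2 (1.29), AKR1B10 (1.78), IGFBP7 (-0.81), HMGB2 (-0.71), CEBPA (-0.90) and AHSG (-0.94). Of 22 NRF2 targets 10 were higher with DBA than with 3MC and none lower. In the list of metallothioneins and zinc export 7 of 12 were higher and 1 lower. Other centring or scaling and the DMSO channel were not examined for the pair of DBA and 3MC.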

How the data were processed

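The 2-colour Agilent 44K arrays were used as scanner output. Per the file headers, it gives intensity per spot and its background in each dye, with no normalisation and no subtraction, and the percent of saturated pixels. A value table by the authors holds log2 ratios of compound over DMSO, with a normalisation not given in the sources used here. Of its 27 columns 7 served as an alternative, and 20 were not used.

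With R 4.3.3 and limma 3.58.1, background was corrected by normexp (offset 50) and each array normalised by loess, with no scaling between arrays. Control spots and spots flagged bad (-75 or lower) were left out, and spots flagged not found were kept. Dropping the spots not found left 9802 genes to test, of which 763 were higher and 656 lower with DBA than with NP. Spots of a probe were averaged, and the probe of highest mean intensity stood for its gene, named through RefSeq (GRCh38.p14). The offset shrinks ratios of dim spots. The fit had 1 mean per compound over 9 arrays (DBA, 3MC and NP), with Benjamini-Hochberg adjustment over 13876 genes, and a gene was called at an adjusted p under 0.05 and 1.5-fold. Single channels were compared after loess and Aquantile scaling. The DMSO channel is RNA of solvent-treated cells. Ring and carbon counts came from rdkit 2024.09.2.

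The text could name the 12 highest and 12 lowest called differences, every AHR target, up to 5 called and 2 uncalled members of each list, and genes called in opposite directions. A gene that this rule would name is not reported here. Members and lists were chosen with earlier results of these data known. On simulated log ratios with 200 of 13876 genes changed, 99% of 2-fold and 100% of 4-fold changes were recovered and 1 unchanged gene was called. The changes were added to normalised ratios with independent noise. The simulation therefore does not cover the offset, the centring, the dimmer DBA arrays or the DMSO channel. Alternatives were other background corrections, centring, scaling, filters, probe means, fits, weights, fold minimums, a replicate block, the authors' values and leaving out each array; centring over the tested genes was chosen after seeing the data.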

Additional observations from a re-analysis of the deposited data

Results flagged for a closer look

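Several genes named in the text were called in opposite directions against DMSO with DBA and with NP, on all 3 arrays of each compound. The difference DBA minus NP, tested in limma, was positive for SULF2 (3.01), IGFBP7 (2.31), FAS (2.27), UBD (2.25), IL1R2 (2.19), BIRC3 (2.01), IFI27 (1.86), PCNA (1.63) and NQO1 (1.23), which were higher than DMSO with DBA and lower with NP. It was negative for AHSG (-1.75), ODC1 (-1.74), ABTB3 (-1.74) and TRIB3 (-1.44), which were lower than DMSO with DBA and higher with NP. The DMSO channel was called between the DBA arrays and the NP arrays for SULF2, IGFBP7, UBD, BIRC3, ODC1 and AHSG, and its part in these results was not tested. Groups of 3 arrays are too small for a test of single arrays that stand apart.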

How the results depend on the processing

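The count of 1741 genes between DBA and NP was 1394 to 2482 under other background corrections, filters, probe rules, fits, weights and quantile scaling, and 1730 of 9448 genes with the authors' values, a fit without NP array 1 and 3MC array 3. Median centring gave 3695 (3542 higher, 153 lower), and centring over the tested genes 2077 higher and 448 lower. Plain subtraction gave 1259 lower. With no fold minimum 9844 were called (4517 higher, 5327 lower), and at 2-fold 406 (288 higher, 118 lower). For DBA against DMSO, main count 1772, plain subtraction gave 2930 (1131 higher), median centring 1594 higher and 634 lower, centring over the tested genes 1239 higher, the authors' values 840 higher, no fold minimum 9407 (4592 higher, 4815 lower) and 2-fold 452 (130 higher, 322 lower). For NP against DMSO, main count 3059, plain subtraction gave 1765 higher, median centring 584 higher, quantile scaling 2039 (721 higher), no fold minimum 11595 (6028 higher, 5567 lower) and 2-fold 979 (219 higher, 760 lower). The cause was not tested, except that the fold minimum itself sets those counts. Leaving out each array in turn gave 1737 to 1790 genes for DBA minus NP, 1648 to 1819 for DBA against DMSO and 3034 to 3128 for NP against DMSO. Residuals of same-numbered DBA and NP arrays correlated at 0.173, -0.00988 and 0.0353, on average 0.0662, against -0.0332 for arrays of other numbers. Whether array numbers pair the arrays was not settled. The replicate block gave 1741, 1772 and 3059 genes, the same counts. In this balanced design a block leaves the differences unchanged and the fold minimum sets most calls, so these counts cannot show a pairing. Of 4163 values of 175 named genes under alternatives, 3828 kept direction and call, 118 gained a call and 137 lost it. Another 75 changed sign with no call in either setting. With a call in at least 1 of the settings, 5 changed sign. These were DNMT3A (-0.36) and PDGFRB (-0.66) under plain subtraction, CYP3A5 (0.59) under median centring, and XAF1 with spots not found dropped (-0.15) and with the authors' values (-0.20). The 3828 include settings that could not move a difference, namely DBA and NP arrays only, all 24 arrays and the replicate block. Testing without the filter, or with either channel above background, left all 175 genes the same. The fold minimums by themselves made 46 of the gains and 49 of the losses. Spots above background in both channels made up 65.4% to 72.0% on the DBA arrays and 79.3% to 82.7% on the NP arrays.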
